A study of Mus musculus with 38 samples.

Results

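The genes described here encode the YAP, TAZ and TEAD transcription factors and the proteins that regulate them. They are 10 genes of the 21938 protein-coding genes in the annotation, and they were taken by name, a choice made with earlier results of these data known. Yap1 and Wwtr1 (which encodes TAZ) are the co-activators, Tead1, Tead2, Tead3 and Tead4 are the DNA-binding partners, and Lats1, Lats2, Amotl2 and Vgll3 are regulators or competitors. Each gene was followed as a window, its gene body with 50 kb on either side, in lists of regions called for histone marks by multiplexed chromatin immunoprecipitation. The 10 windows together span 1706 kb of the mm10 genome.

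In the Hippo pathway, the kinases LATS1 and LATS2 phosphorylate YAP and TAZ, which keeps them in the cytoplasm or leads to their degradation. Unphosphorylated YAP and TAZ enter the nucleus and, having no DNA-binding domain of their own, act through TEAD proteins, which recognise the motif GGAATG. Angiomotin-family proteins such as AMOTL2 hold YAP and TAZ outside the nucleus, and VGLL proteins bind the same TEAD surface. In skin, YAP and TAZ are known for sustaining the proliferation of basal epidermal cells and for their part in basal cell carcinoma. H3K4me1 is a mark of enhancers, whether active or not, and H3K27ac marks active promoters and enhancers.

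The skin cells were epidermal stem cells (EpdSCs) of male mice of the genotype K14rtTA; TRE-myc-Sox9, in which the keratin 14 promoter drives rtTA and doxycycline (DOX) then switches on a MYC-tagged Sox9 transgene. They were sorted as negative for CD31, CD45, CD117, CD140a and CD34, high for CD49f and high for Ly6A. The lists are D0, with no induction, and 1, 2, 6 and 12 weeks of DOX (W1, W2, W6 and W12). DOX was started at P21 in the mice, whereas the W12 cells came from newborn skin of the same genotype grafted onto female Nude mice. The series holds 38 samples in all, 12 for H3K4me1, 12 for H3K27ac and 12 for total H3 in skin, plus 2 for H3K4me1 in cultured keratinocytes of newborn pups. The total H3 samples have no list and were not analysed here. Of each 12, 6 were libraries of chromatin cut with high MNase and 6 with low MNase, and the 2 culture samples are likewise 1 of each, so that samples which differ by digest alone are not replicates. In the culture, cells with rtTA were transduced separately with lentiviruses for wild-type SOX9 (WT), for SOX9 lacking its DNA-binding HMG domain (ΔHMG) or for SOX9 lacking its transactivation domain (ΔTA). The list without DOX is of the cells carrying WT, so only WT is set against its own uninduced cells. For ΔHMG and ΔTA, the form of SOX9 and the difference between transduced cells cannot be told apart. Every list pools the replicates of its group, and the W12 libraries also carried the first W2 replicate under other barcodes. With 1 pooled list per mark and time there is no spread between replicates, so no difference below was tested, and each interval given covers counting error only.

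The 5 H3K4me1 lists held 69439 to 87287 domains and the 5 H3K27ac lists 29081 to 33985 peaks on the autosomes, X and Y, and the 4 culture lists held 110589 to 123338 intervals. In 92.1% to 96.0% of the H3K27ac peaks of D0 to W6, and in 83.3% of those of W12, the peak caller's fold converted to a whole number of fragments at the summit (within 0.01) over a background of 0.299 at W1, 0.412 at W12, 0.425 at W2, 0.501 at D0 and 0.677 fragments at W6. Heights of H3K27ac peaks are therefore given below as this summit pileup divided by its list's background, with the 95% Poisson interval of the fragment count. Among basal keratinocyte genes, Krt5, Krt14, Trp63, Itga6 and Itgb4 each had an H3K27ac peak within 1000 bp of a start site in 5 of 5 lists. Ptprc, Pdgfra, Kit and Cd34, which mark cells that the sort removes, had a start-site peak in 0 of 5 lists, as did Krt1 of the suprabasal layers. Krt10 had one in 5 of 5. The exceptions were the melanocyte gene Dct at W1, with 4 fragments at its summit, and the endothelial gene Pecam1, with 7 fragments at W6 and 20 at W12. The W12 peak of Pecam1 stood at 48.6 times background (29.7 to 75.0), and its part in the W12 values below was not tested. These markers separate less well by H3K4me1. A domain lay within 1000 bp of a start of Pdgfra, Pecam1, Dct, Krt1 and Krt10, and of each basal gene, in every list. For Kit this held in every list but W6, for Cd34 from W2 on and for Ptprc in none.

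The RefSeq promoter table (build GRCm38.p6, 250 bases before to 50 after a start) held 8 of the 10 genes, with 12 promoters, and did not list Tead1 or Tead4. The TEAD motif GGAATG, read on both strands, occurred in the promoters of 6 of these 8 genes: Yap1, Wwtr1, Tead3, Amotl2, Lats2 and Vgll3. It was found for 16.6% of all 27025 genes in the table and in 14.7% of its 32851 promoters. The Wwtr1 promoters overlap each other, as do those of Tead3, so the 8 of 12 member promoters with the motif are not separate sequences. A match is only a description of the letters. The 4 stretches below are shown because they lie upstream of every annotated coding or UTR exon, carry the TEAD motif and sit where the H3K27ac of these genes was measured. The motif is in capitals, each sequence runs 5′ to 3′ on the gene's strand, and in Vgll3 the match is on the opposite strand.
Yap1, chr9:8004597-8004846, minus strand: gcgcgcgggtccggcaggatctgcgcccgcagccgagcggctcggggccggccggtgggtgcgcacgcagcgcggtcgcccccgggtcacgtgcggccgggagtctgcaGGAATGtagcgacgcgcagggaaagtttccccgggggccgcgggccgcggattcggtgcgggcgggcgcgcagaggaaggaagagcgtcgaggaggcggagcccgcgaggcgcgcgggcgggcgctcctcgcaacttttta
Wwtr1, chr3:57575911-57576160, minus strand: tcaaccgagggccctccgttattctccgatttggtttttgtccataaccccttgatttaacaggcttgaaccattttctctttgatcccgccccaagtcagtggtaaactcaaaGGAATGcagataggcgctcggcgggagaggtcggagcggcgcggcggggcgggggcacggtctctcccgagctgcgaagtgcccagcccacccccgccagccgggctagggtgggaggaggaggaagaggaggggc
Tead3, chr17:28350818-28351055, minus strand: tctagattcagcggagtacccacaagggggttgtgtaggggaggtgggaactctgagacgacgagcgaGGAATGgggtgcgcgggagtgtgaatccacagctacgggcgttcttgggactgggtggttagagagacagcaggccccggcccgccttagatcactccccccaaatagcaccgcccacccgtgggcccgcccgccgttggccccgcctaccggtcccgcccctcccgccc
Vgll3, chr16:65814939-65815188, plus strand: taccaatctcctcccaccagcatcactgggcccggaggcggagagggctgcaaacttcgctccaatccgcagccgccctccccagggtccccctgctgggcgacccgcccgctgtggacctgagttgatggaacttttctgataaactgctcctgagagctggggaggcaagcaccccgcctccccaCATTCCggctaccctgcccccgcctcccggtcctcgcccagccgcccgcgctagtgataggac
The SOX motifs ACAAAG and ACAATG occurred in the promoters of 3 of the 8 genes (Tead2, Lats2 and Vgll3), against 31.7% of all genes in the table. The AP1 motif TGACTCA, whose other strand reads TGAGTCA, occurred in none of the 8, against 5.95% of all genes.

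H3K4me1 was called widely over these genes before induction. At D0 it covered 34.9% of the bases in the 10 windows, in 134 domains, and in the 4 later lists, in order of time, 31.2%, 35.1%, 30.0% and 30.7%. A domain was counted as gained when it overlapped no D0 domain by even 1 bp, and as lost when a D0 domain overlapped none in the later list. In the windows, 2 of 108 domains were gained at W1 (1.85%, 95% exact binomial interval 0.225 to 6.53), against 5.96% of the whole list. At W2 it was 16 of 118 (13.6%, 7.95 to 21.1) against 20.0%, at W6 it was 10 of 137 (7.30%, 3.56 to 13.0) against 17.1%, and at W12 it was 13 of 129 (10.1%, 5.48 to 16.6) against 15.6%. Of the 134 D0 domains, 32 were lost at W1 (23.9%, 16.9 to 32.0; whole list 27.8%), 29 at W2 (21.6%, 15.0 to 29.6; whole list 32.4%), 24 at W6 (17.9%, 11.8 to 25.5; whole list 26.6%) and 30 at W12 (22.4%, 15.6 to 30.4; whole list 31.2%). The whole-list share lay above the interval of the windows for gains at W6 and for losses at W2, W6 and W12, and inside it otherwise. The part of the wide D0 coverage of these windows in shares counted by a 1 bp overlap was not tested.

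A change in covered bases was counted for a gene when it reached 1.2-fold for H3K4me1, and "higher" and "lower" mean this fold and not a test. At W1, 6 of the 10 genes were lower and 1 was higher than at D0, beside 48.7% lower and 6.27% higher among the 18853 protein-coding genes with a domain. At W2, 2 were higher and 2 lower, beside 17.5% higher and 40.8% lower. At W6, 1 was higher and 4 were lower, beside 14.6% and 41.6%, and at W12 again 1 was higher and 4 lower, beside 14.6% and 45.1%. The lower genes are a smaller share than the background at W2, W6 and W12 and a larger one at W1, over only 10 genes and without a test.

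Wwtr1 (ENSMUSG00000027803, chr3:57455649-57575910, minus strand) had the deepest drop in H3K4me1 at a single time. Its 220-kb window was covered for 106 kb at D0, 85.7 kb at W1, 90.3 kb at W2, 50.3 kb at W6 and 88.6 kb at W12. The W6 list therefore stands below the other 4, and W12 is back near W1 and W2. At W6 the covered bases were 0.476 of those at D0, and 4.99% of protein-coding genes had a lower ratio. From D0 to W12, the widest domain of the window measured 34400, 22000, 17000, 7800 and 15000 bp. Of its 17 D0 domains, 7 were lost at W2 and 8 at W6, while 0 of 12 and 0 of 16 later domains were gained.

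Yap1 (ENSMUSG00000053110, chr9:7931999-8004596, minus strand) was also covered for fewer bases in every later list. H3K4me1 covered 95 kb of its 173-kb window at D0, 83.4 kb at W1, 80.8 kb at W2, 67.2 kb at W6 and 76.8 kb at W12. All 4 later values lie below D0, and W6 and W12 are past the 1.2-fold limit, at 0.707 and 0.808 of D0. The median protein-coding gene was also lower in each later list, at 0.844, 0.895, 0.883 and 0.867 of D0 from W1 to W12. In the same order, 58.1%, 42.4%, 21.8% and 39.2% of genes had a lower ratio than Yap1. At W1 and W6 the ratio of Yap1 was nearer to 1 than that of Wwtr1, and at W2 and W12 it was not. At W6 the mark was called in 18 pieces of at most 8600 bp, where D0 had 16 pieces of up to 32600 bp. Cfap300 is the other coding gene in this window.

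Tead4 (ENSMUSG00000030353, chr6:128224288-128300823, minus strand) went the other way. H3K4me1 covered 31.8 kb of its window at D0, 40.0 kb at W1, 68.0 kb at W2, 45.6 kb at W6 and 42.4 kb at W12. Every later list is above D0 by more than 1.2-fold, and W2 is highest, at 2.14 times D0, a ratio that 97.0% of genes fell below. Tead4 gained 5 of its 13 W2 domains, the most of the 10 genes. One W2 domain, chr6:128315001-128316800 in the intergenic space 15.1 kb upstream of the start site, was absent at D0 and W1 and was called again at W6 and W12.

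The other TEAD genes showed smaller or no changes in H3K4me1. Tead1 (ENSMUSG00000055320, chr7:112679318-112906807, plus strand), the longest of the 10, was covered for 142, 140, 142, 143 and 112 kb from D0 to W12, so that only W12 stands apart. Tead3 (ENSMUSG00000002249, chr17:28331671-28350817, minus strand) was covered for 53.1, 41.7, 50.2, 49.5 and 48.9 kb, lowest at W1. Tead2 (ENSMUSG00000030796, chr7:45215753-45233644, plus strand) was covered for 22.8, 15.0, 25.8, 23.6 and 24.4 kb and was also lowest at W1, a direction that reversed when the lists were cut to equal length. The Tead2 window holds 8 other coding genes and that of Tead3 holds 5, and in each list 1 domain of the Tead2 window had a Tead2 start as its nearest coding start site.

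The kinase genes differed from each other. Lats1 (ENSMUSG00000040021, chr10:7681214-7716460, plus strand) was covered by H3K4me1 for 31.8 kb at D0, 24.8 kb at W1, 23.6 kb at W2, 18.2 kb at W6 and 17.6 kb at W12. It was lower in every later list, and at W12 it stood at 0.554 of D0, with 8.49% of genes lower. Of its 11 D0 domains, 4 were lost at W6 and none of the 7 W6 domains was gained, and 3 D0 domains were absent from every later list. These 3 lie nearer to the start sites of Pcmt1 and Katna1 than to that of Lats1. The Lats1 window holds 3 other coding genes. In each list 2 of its domains had a Lats1 start as their nearest coding start site, while all its domains numbered 11 at D0 and 4 at W12. Lats2 (ENSMUSG00000021959, chr14:57689662-57758388, minus strand) was covered for 31.6, 36.4, 46.6, 37.8 and 34.0 kb. All later values are above D0, with W2 highest at 1.47 times D0, and at W2 none of its 9 D0 domains was lost. The Lats2 window holds 4 other coding genes, and 4 to 6 domains per list had a Lats2 start as nearest.

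Amotl2 and Vgll3 held the largest and the smallest shares of the mark in most lists. Amotl2 (ENSMUSG00000032531, chr9:102716672-102733418, plus strand) had 59.7%, 47.0%, 54.3%, 56.5% and 59.1% of its window covered from D0 to W12, the largest share of the 10 genes in each list except W1, where Yap1 had 48.3%. At W1 it was lower, at 0.786 of D0, and it stayed within 1.2-fold at the other times. Vgll3 (ENSMUSG00000091243, chr16:65815257-65866368, plus strand) had 8.34%, 6.75%, 5.16%, 6.88% and 6.88%. Vgll3 was below D0 by more than 1.2-fold at each later time, on 3 to 5 domains per list. From W1 to W12 its ratios were 0.810, 0.619, 0.825 and 0.825. The shares of genes with a lower ratio were 41.6%, 13.1%, 39.5% and 42.5%, respectively. The median gene also fell in every later list, and only the W2 value of Vgll3 stood well below it. No other coding gene shares the window of Amotl2 or of Vgll3.

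**Figure D1:**
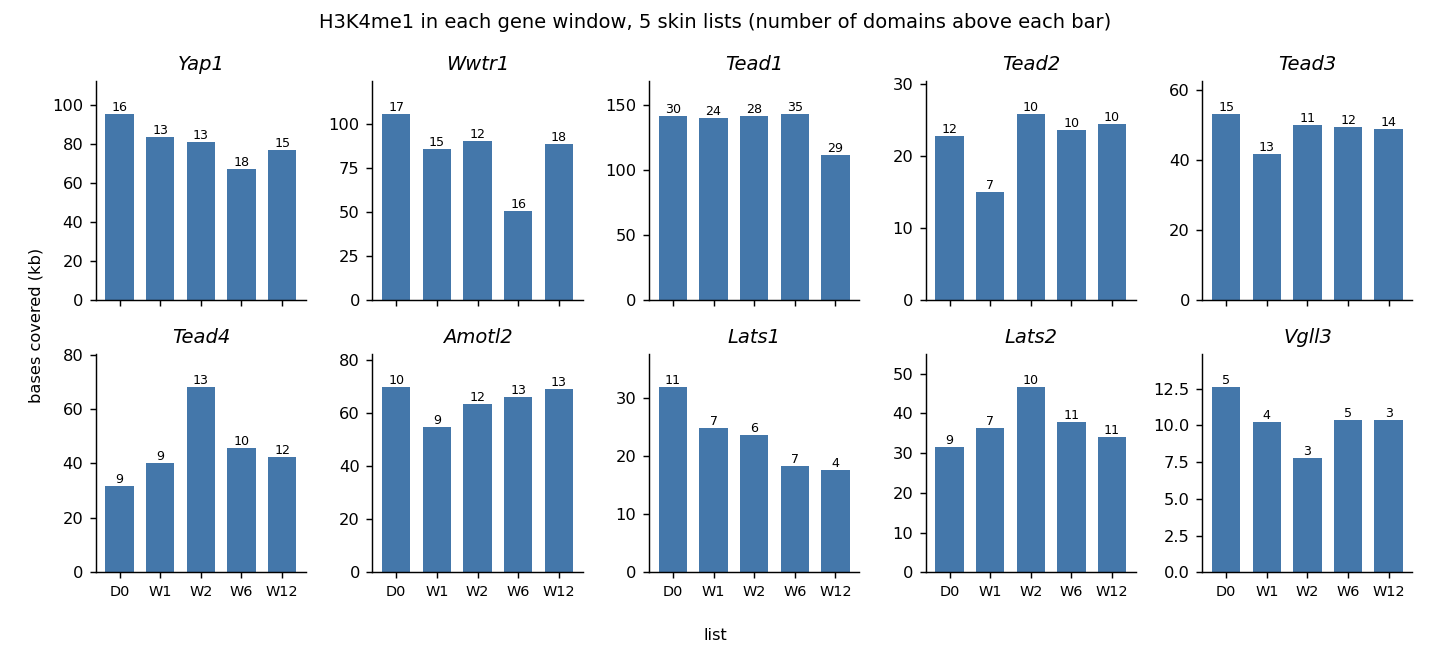
Bases covered by H3K4me1 (kb, linear axis from 0, a scale of its own for each gene) in the window of each of the 10 genes in the 5 skin lists, with the number of domains above each bar. Wwtr1 falls from 106 kb at D0 to 50.3 kb at W6, and Tead4 rises from 31.8 kb at D0 to 68.0 kb at W2.

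Domains that came and stayed were few. Of the 118 W2 domains in the windows, 5 were absent at D0 and called at W2, W6 and W12 (4.24%, whole list 5.0%). They were the Tead4 domain above, a Tead1 intron domain at chr7:112865201-112869200 that was already called at W1, 2 near Lats2 (chr14:57716401-57720800 in its introns and chr14:57784401-57785400, nearer to Sap18) and 1 upstream of Amotl2. The Amotl2 domain, chr9:102699401-102702400, lies 15.9 kb upstream of the most upstream start site in an exon of the noncoding gene Gm36957, and its p-value of 7e-60 ranked it within the best 22.1% of the W2 list. Of the 134 D0 domains, 12 were absent from every later list (8.96%, whole list 13.7%), and 4 of these were in the window of Wwtr1, all upstream of its start site.

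At the start sites, H3K27ac was called for 9, 8, 9, 9 and 7 of the 10 genes from D0 to W12. Among all protein-coding genes the shares were 44.5%, 43.1%, 44.1%, 48.4% and 36.2% in the same order. Tead2 was the gene with no start-site peak in any list, and its window held no H3K27ac peak at D0, W1 or W2 and 1 at W6 and 1 at W12, nearest to Pth2 and Slc6a21. The other gaps were Vgll3 at W1 and Tead3 and Lats2 at W12.

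Wwtr1 carried the highest start-site peak of the 10 at D0, with 62 fragments at its summit, 124 times background (94.9 to 159). It stood at 100.4 at W1 (67.7 to 143), 58.8 at W2 (38.0 to 86.8), 51.7 at W6 (36.0 to 71.9) and 58.3 at W12 (37.4 to 86.7). The intervals of W2, W6 and W12 lie below that of D0 without overlap, and that of W1 overlaps it. The peak stayed among the strongest of its lists, within the top 0.912%, 0.381%, 3.93%, 3.94% and 1.2% by fold. The start-site peaks of the basal keratinocyte genes Krt5, Krt14, Trp63, Itga6 and Itgb4 were also lower than at D0, 5 of 5 at W1, W6 and W12 and 4 of 5 at W2. Krt14 stood at 132 times background at D0 (102 to 168), 54.7 at W6 (38.5 to 75.4) and 51.0 at W12 (31.6 to 78.0). Itgb4 stood at 89.9 at D0 (65.6 to 120), 26.6 at W6 (15.8 to 42.0) and 36.4 at W12 (20.4 to 60.1). The intervals of both lie below D0 at W6 and W12, and the part of this shift in the values of Wwtr1 and Yap1 was not tested.

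The Yap1 start-site peak stood at 85.9 times background at D0 (62.2 to 116), 56.9 at W1 (33.1 to 91.1), 61.1 at W2 (39.9 to 89.6), 78.3 at W6 (58.7 to 102) and 29.2 at W12 (15.1 to 50.9). The W12 interval lies below those of D0 and W6, and the other 4 lists overlap. In its own list the W6 peak ranked within the top 0.442%.

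Among the TEAD genes, the peak over the Tead1 start gave 18.0 times background at D0 (8.22 to 34.1), 23.4 at W1, 25.9 at W2 (12.9 to 46.3), 28.1 at W6 and 24.3 at W12, and all intervals overlap. From W2 on, a separate intron peak described below also lay within 1000 bp of a start. Tead3 gave 47.9, 40.1, 35.3 and 28.1 from D0 to W6, also with overlapping intervals. Tead4 gave 30.0, 36.8, 28.2, 29.5 and 19.4 from D0 to W12, with no interval apart from another. Its highest start-site peak nevertheless measured 996 and 877 bp in the first 2 lists and 3288, 3461 and 2689 bp in the last 3. At W1 the start held 2 separate peaks, against 1 in each other list. The 36.8 and the 877 bp belong to the higher of these 2, which lies inside the gene, 0.508 to 1.385 kb from the start.

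Of the kinases, Lats1 gave 67.9 at D0 (47.0 to 94.9), 23.4 at W1 (9.42 to 48.2), 65.8 at W2 (43.8 to 95.2), 31.0 at W6 (19.2 to 47.4) and 43.7 at W12 (25.9 to 69.1). The W1 value rests on 7 fragments, and the intervals of W1 and W6 still overlap that of D0 at the edge. Lats2 had a weak peak over its start (chr14:57746048-57746703), of 6 fragments at D0 (12 times background, 4.40 to 26.1), and this peak stood at 16.7 at W1 (5.43 to 39.0), 21.2 at W2 (9.68 to 40.2) and 10.3 at W6 (4.16 to 21.3), with overlapping intervals, and was not called at W12. A second peak inside the gene (chr14:57744012-57745591), called neither at D0 nor at W12, stood at 30.1 at W1 (13.8 to 57.2), 18.8 at W2 (8.12 to 37.1) and 22.2 at W6 (12.4 to 36.6). Both lie nearest to a start of Gm49361.

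Amotl2 gave 36.0, 53.5, 44.7, 29.5 and 31.6 from D0 to W12, with overlapping intervals. The peak over the Vgll3 start stood at 32.0 at D0 (18.3 to 51.9), 28.2 at W2 (14.6 to 49.3), 16.3 at W6 (8.11 to 29.1) and 12.1 at W12 (3.94 to 28.3), also with overlapping intervals. At W12 a separate 406-bp peak near the start stood at 29.2 (15.1 to 50.9).

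**Figure D2:**
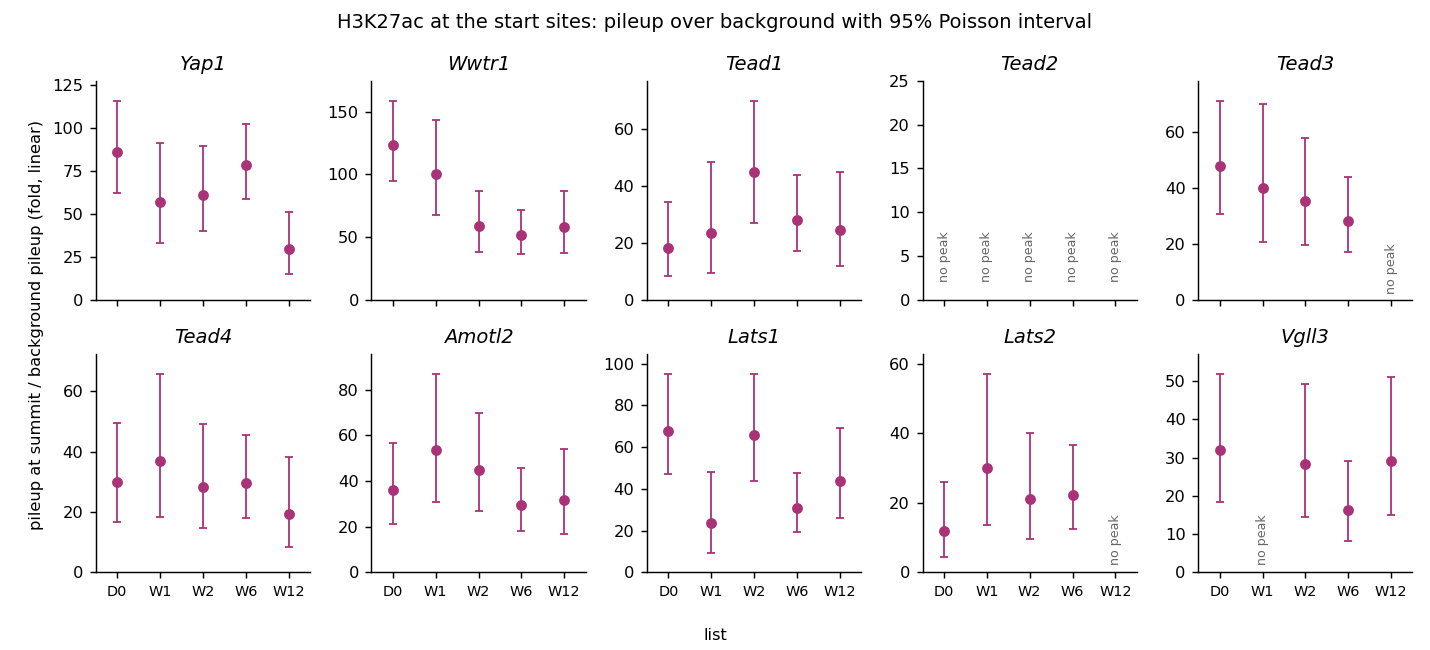
Summit pileup of the highest H3K27ac peak within 1000 bp of a start site, divided by its list's background (linear axis, a scale of its own for each gene), in the 5 skin lists. The highest peak is not the same peak in every list for Tead1, Tead4, Lats2 and Vgll3. Tead3 and Lats1 also had 2 peaks near a start in some lists. Points are the pooled lists and bars are 95% Poisson intervals of the fragment count. Wwtr1 starts at 124 at D0 and lies at 51.7 to 58.8 from W2 on, and Tead2 has no peak.

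Over the whole windows, H3K27ac covered 61.9 kb at D0, 66.0 kb at W1, 64.7 kb at W2, 66.0 kb at W6 and 41.1 kb at W12, in 64, 77, 62, 67 and 61 peaks. At W1, 34 of 77 peaks were gained (44.2%, 32.8 to 55.9), against 41.3% of the whole list. It was 25 of 62 at W2 (40.3%, 28.1 to 53.6) against 40.1%, 30 of 67 at W6 (44.8%, 32.6 to 57.4) against 39.8%, and 27 of 61 at W12 (44.3%, 31.5 to 57.6) against 56.2%. Of the 64 D0 peaks, 25 were lost at W1 (39.1%, whole list 37.4%), 26 at W2 (40.6%, whole list 38.6%), 28 at W6 (43.8%, whole list 37.8%) and 30 at W12 (46.9%, whole list 53.7%). Each whole-list share lies inside the interval of the windows, so turnover of the mark over these genes was not distinguishable from that of the lists.

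The genes divided in direction, counted here at 1.5-fold in covered bases. At W1, 2 of 9 genes with a peak were higher and 1 lower, beside 19.5% higher and 18.8% lower of all protein-coding genes. At W2, 3 of 9 were higher and 1 lower, beside 23.9% and 16.7%. At W6, with Tead2 counted for its first peak, 4 of 10 were higher and 1 lower, beside 28.4% and 13.3%. At W12, 2 were higher and 5 lower, beside 19.9% and 40.5%. The W12 list had the narrowest peaks, with a median width of 476 bp against 635 bp at D0, and the median gene stood at 0.734 of D0 there.

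Wwtr1 lost H3K27ac over time. Its window held 14.7 kb in 15 peaks at D0, 10.7 kb in 9 at W1, 10.1 kb in 10 at W2, 6.47 kb in 6 at W6 and 6.37 kb in 10 at W12. Every later value is below D0. The W6 ratio was 0.440, and 4.05% of genes were lower. Yap1 held 14, 16.3, 15.9, 12.7 and 8.21 kb, lower by 1.5-fold at W12 only, where its ratio of 0.585 was below the 0.734 of the median gene.

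H3K27ac covered more bases in later lists in the windows of Tead4, Lats2 and Tead1. Tead4 held 3.01 kb at D0, 4.09 kb at W1, 6.50 kb at W2, 6.95 kb at W6 and 5.39 kb at W12, at 2.16 times D0 at W2, 2.31 at W6 and 1.79 at W12, though with 100-kb flanks the W12 direction reversed. Lats2 held 2.55, 5.51, 5.61, 7.17 and 2.58 kb, so W1, W2 and W6 were more than 2 times D0 and W12 was close to it. At W6 its ratio of 2.82 was above that of 95.1% of genes. Tead1 held 4.0, 7.73, 7.49, 7.45 and 5.09 kb, at 1.93, 1.87 and 1.86 times D0 from W1 to W6. This includes a peak at the start of the neighbouring gene Rassf10, 275 kb away. Without peaks within 1000 bp of starts of other coding genes, an alternative chosen after seeing the data, Tead1 was at 1.40, 1.87 and 1.34 times D0, past 1.5-fold at W2 only. The W2 peak in Rassf10 lay more than 1000 bp from its start and was kept. Under that alternative the Tead4 values did not change. Lats2 went from 0.568 kb at D0 to 3.41, 3.77, 3.52 and 1.01 kb, so that W12 also passed the fold. The peaks at the Lats2 start were kept in it, although they lie nearest to a start of Gm49361. The D0 value is therefore the 1 start-site peak of 6 fragments, and each Lats2 ratio of this alternative rests on it. Both marks were thus higher at W2 in the windows of Tead4 and Lats2, while in Tead1 the H3K4me1 at W2 covered as many bases as at D0.

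In the other windows, Amotl2 held 7.50, 9.51, 6.27, 5.34 and 2.79 kb, and it was lower by 1.5-fold at W12, at 0.372 of D0 with 11.7% of genes lower. Tead3 held 9.54, 7.24, 6.47, 11.1 and 5.57 kb, and without peaks at other genes' starts it was also lower at W1 and W2, at 0.544 and 0.515 of D0. Vgll3 held 2.58, 1.32, 1.55, 3.02 and 1.22 kb, lower at W1, W2 and W12 on 2 to 3 peaks. Lats1 stayed within 1.5-fold at each time, from 3.28 kb at W12 to 5.27 kb at W6.

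**Figure D3:**
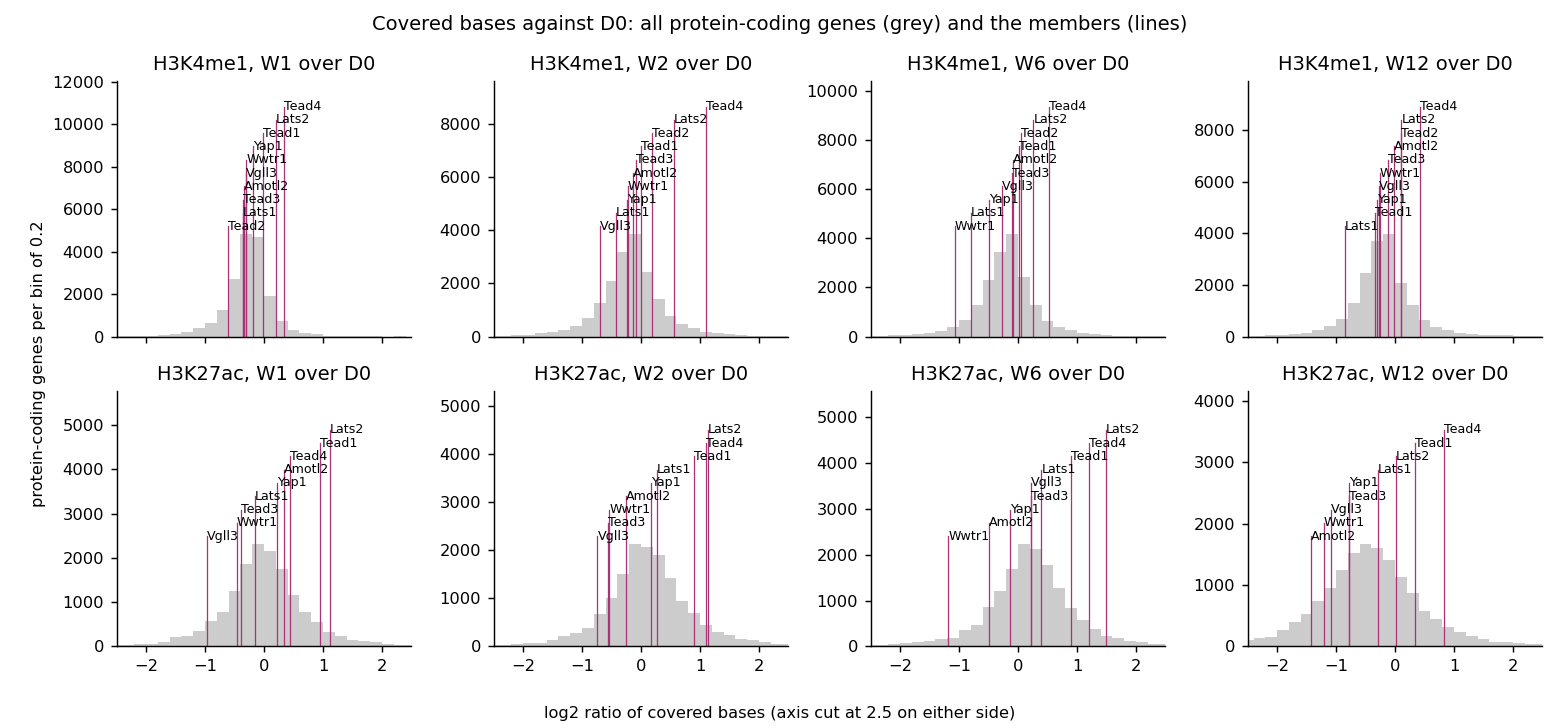
Distribution of the log2 ratio of covered bases, later list over D0, for all protein-coding genes with the mark in both lists (grey, number of genes per bin of 0.2) and the values of the named genes (vertical lines, whose heights carry no value), for H3K4me1 above and H3K27ac below. Tead4 and Lats2 stand on the right and Wwtr1 on the left at W6 in both marks. Tead2 has no H3K27ac ratio, since its D0 value is 0.

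The peaks of the 5 H3K27ac lists merged into 138 elements in the windows, and 77 of these (55.8%) were called in 1 list only, against 55.1% of all 65311 elements. Called in all 5 lists were 22 (15.9%, 10.3 to 23.1; all elements 15.6%), which included the start sites of Yap1, Wwtr1, Tead1, Tead3, Tead4, Amotl2 and Lats1, although the Tead3 peak of W12 lay more than 1000 bp from a start site. Wwtr1 had 2 further such elements, in its introns 63.2 and 74.4 kb from the start. A lasting gain (absent at D0, called at W2, W6 and W12) was seen for 2 elements (1.45%, all elements 2.54%), both in the window of Tead1. A lasting loss (called at D0 only) was seen for 15 (10.9%, 6.21 to 17.3; all elements 9.29%), of which 7 were in the window of Wwtr1, 3 in that of Yap1, 2 each in those of Tead1 and Amotl2 and 1 in that of Tead3.

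The stronger lasting gain, chr7:112679554-112681378, begins 197 bp downstream of the nearest Tead1 start site in an intron. It had 19 fragments at W2 (44.7 times background, 26.9 to 69.8), 12 at W6 (17.7, 9.16 to 31.0) and 7 at W12 (17.0, 6.84 to 35.0), and it lay on H3K4me1 domains at every time from D0 on. The other, chr7:112953841-112956059, sits at the start of the neighbouring gene Rassf10, 275 kb from the Tead1 start, and was also called at W1. The strongest lasting loss lies in a Wwtr1 intron 47.9 kb from the start (chr3:57527799-57528328), with 13 fragments at D0 (26.0 times background, 13.8 to 44.4). The next by D0 fold were a Yap1 intron peak at 20.9 kb with 7 fragments (14 times background) and 3 in the Wwtr1 window. These lie in its introns at 47.0 and 78.1 kb from the start and 49.7 kb upstream of it, and the last 2 had 6 fragments each (12 times background). At 4 to 7 fragments at D0, whether the mark was absent later was not detectable at this depth.

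A further element in Lats2, chosen after its values were seen, was called at W1, W2 and W6 and neither at D0 nor at W12. It lies in an intron 38.8 kb from the start (chr14:57706352-57708377) and stood at 23.4 times background at W1 (9.42 to 48.2), 30.6 at W2 (16.3 to 52.3) and 31.0 at W6 (19.2 to 47.4). An H3K4me1 domain was called there at all 5 times. The 300 bases around the summits of these 3 elements are shown as the places where H3K27ac came or went in the windows of Tead1, Wwtr1 and Lats2, on the plus strand of mm10, with matches to the TEAD, SOX or AP1 motifs in capitals.
Tead1, gained from W2, chr7:112679961-112680260: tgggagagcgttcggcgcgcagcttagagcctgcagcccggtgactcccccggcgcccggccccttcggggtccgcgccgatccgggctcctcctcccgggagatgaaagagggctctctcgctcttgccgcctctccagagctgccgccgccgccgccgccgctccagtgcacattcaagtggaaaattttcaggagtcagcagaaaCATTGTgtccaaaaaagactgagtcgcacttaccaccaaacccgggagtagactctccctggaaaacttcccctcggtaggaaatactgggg
Wwtr1, called at D0 only, chr3:57527812-57528111: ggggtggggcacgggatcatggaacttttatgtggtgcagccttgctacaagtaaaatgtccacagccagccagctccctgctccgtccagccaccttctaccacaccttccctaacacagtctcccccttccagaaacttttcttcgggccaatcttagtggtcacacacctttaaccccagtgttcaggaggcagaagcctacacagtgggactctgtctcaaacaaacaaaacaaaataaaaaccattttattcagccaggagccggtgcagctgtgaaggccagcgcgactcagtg
Lats2, called at W1, W2 and W6, chr14:57707172-57707471: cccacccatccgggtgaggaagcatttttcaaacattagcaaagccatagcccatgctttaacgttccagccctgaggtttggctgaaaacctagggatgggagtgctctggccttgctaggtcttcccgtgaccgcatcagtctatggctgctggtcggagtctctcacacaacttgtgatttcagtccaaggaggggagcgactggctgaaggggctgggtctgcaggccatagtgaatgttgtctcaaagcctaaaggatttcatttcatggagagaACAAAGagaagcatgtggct
The Tead1 and Lats2 sequences each hold 1 SOX match and no TEAD or AP1 match, and the Wwtr1 sequence holds none of the motifs.

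**Figure D4:**
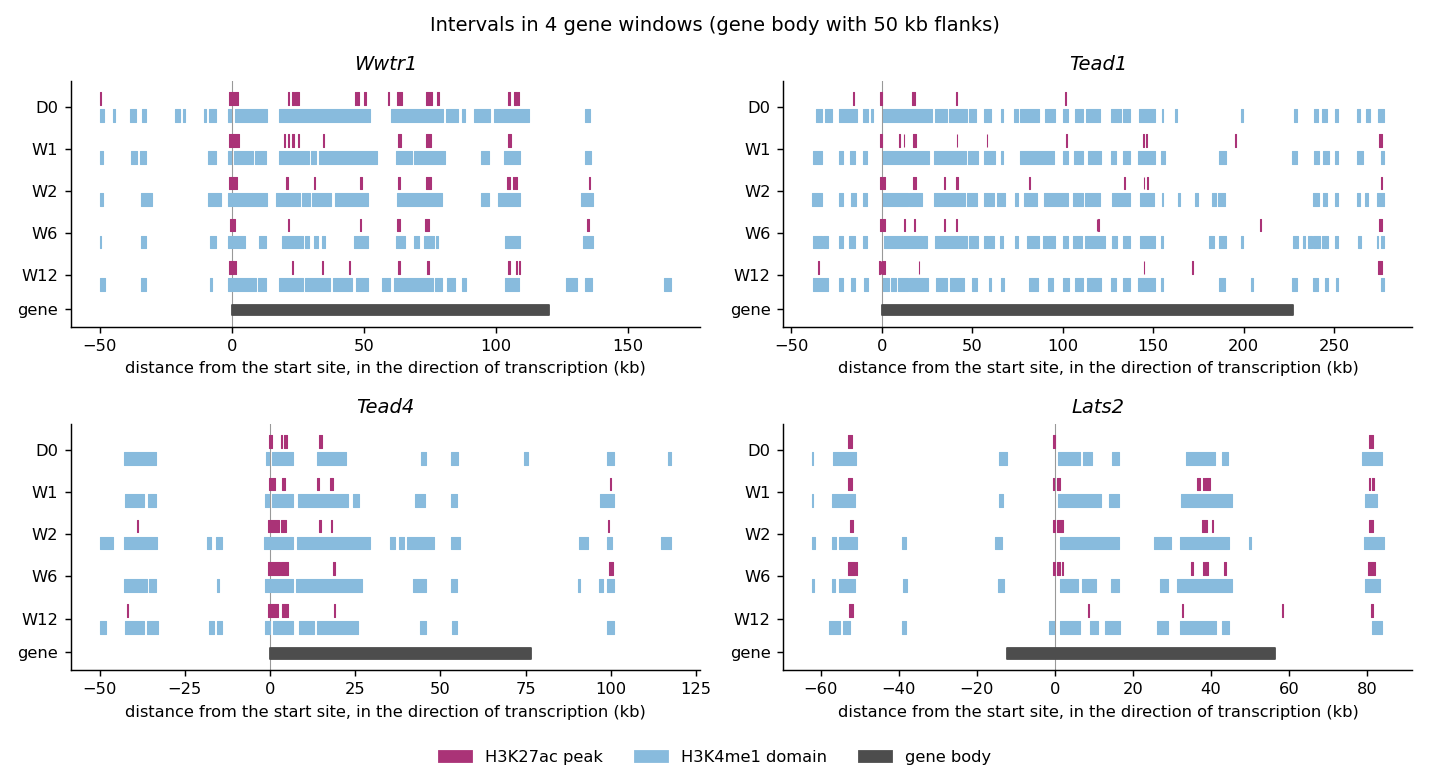
Called intervals in the windows of Wwtr1, Tead1, Tead4 and Lats2 by list, as distance from the most upstream start site of the basic transcripts (kb, positive in the direction of transcription). H3K27ac peaks are purple, H3K4me1 domains light blue and the gene body dark grey, and the thinnest bars are widened by the line drawn around them. Wwtr1 has 15 peaks at D0 and 6 at W6, and the Lats2 gene body extends upstream of its start because of transcripts outside the basic set.

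Most H3K27ac that appeared later did so where H3K4me1 was already called. Of the 80 elements first called after D0, 72 overlapped a D0 H3K4me1 domain (90%, 81.2 to 95.6), against 71.8% of such elements in all. By time it was 31 of 32 elements first called at W1, 15 of 15 at W2, 13 of 14 at W6 and 13 of 19 at W12, beside 90.2%, 85.4%, 86.3% and 43.6% of all elements first called at those times. The windows are themselves rich in H3K4me1, with 34.9% of their bases covered at D0.

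In 300 bases around the H3K27ac summits, the TEAD motif was present in 14 of 64 peaks of the windows at D0 (21.9%), 9 of 77 at W1 (11.7%), 12 of 62 at W2 (19.4%), 13 of 67 at W6 (19.4%) and 9 of 61 at W12 (14.8%). The shares of all peaks in those lists were 15.1%, 14.8%, 15.6%, 14.4% and 15.2%. The SOX motifs were present in 34.4%, 32.5%, 33.9%, 20.9% and 31.1% of the window peaks, against 29.1%, 31.7%, 31.2%, 29.3% and 32.7% of all. The AP1 motif was in 3 to 6 window peaks per list, 4.84% to 8.96%, against 5.76% to 6.20% of all.

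A further 25 genes of the pathway and its targets were counted in the same way. For H3K4me1 at W2, 6 were higher and 8 lower of 25, beside 17.5% higher and 40.8% lower of all protein-coding genes. The median ratio was 0.939 beside 0.895 for all protein-coding genes. At W6 it was 4 higher and 12 lower, beside 14.6% and 41.6%. For H3K27ac at W2, 4 were higher and 2 lower of 23 with a peak, beside 23.9% and 16.7%, with a median ratio of 1.01 beside 1.07. At W6 it was 8 higher and 4 lower of 24, beside 28.4% and 13.3%, with a median ratio of 1.33 beside 1.16. The target gene Ccn2, which encodes connective tissue growth factor, was covered by H3K4me1 for 14 kb at D0, 29.7 kb at W1, 39.1 kb at W2, 36.9 kb at W6 and 31.1 kb at W12. Its H3K27ac was listed at 0 at D0 and covered 1.2, 3.74, 2.38 and 1.47 kb at the later times. For Ccn1, another target, which encodes the matrix protein CYR61, H3K4me1 covered 49.0 kb at D0 and 43.0, 36.8, 38.2 and 32.4 kb later. H3K27ac covered 4.58 kb of its window at D0 and 2.55, 4.49, 1.16 and 1.55 kb later, so that W2 was near D0 and the other 3 were lower by 1.5-fold.

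Among the other genes at W2, the largest rises in H3K4me1 besides Ccn2 were those of Vgll2 (0.8 to 2.60 kb), a TEAD cofactor, and Sav1 (7 to 13.2 kb), the scaffold of the upstream kinases. The largest falls were those of Vgll1 (7.20 kb to none), also a TEAD cofactor, F3 (0.653 of D0), which encodes tissue factor, and Wwc2 (0.743). In H3K27ac, Sav1 rose from 0.978 to 3.66 kb and Map4k4, a kinase that can act on LATS, from 9.29 to 17.0 kb. Stk4, which encodes the kinase MST1, went from 1.78 to 0.760 kb and the target Ankrd1 to 0.5 of D0. These 2 were the only falls past 1.5-fold among the 25 genes in that mark at W2.

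In the cultured keratinocytes, H3K4me1 covered 15.4% of the 10 windows without DOX, 17.1% with WT SOX9, 16.3% with ΔHMG and 17.0% with ΔTA. With WT SOX9, 41 of 216 intervals were gained over the cells without DOX (19.0%, 14 to 24.9), against 29.1% of the whole list. It was 29 of 226 with ΔHMG (12.8%, 8.76 to 17.9) against 19.3%, and 35 of 223 with ΔTA (15.7%, 11.2 to 21.1) against 25.8%. Of the 219 intervals without DOX, 40 were lost with WT (18.3%, 13.4 to 24.0; whole list 25.1%), 24 with ΔHMG (11%, 7.15 to 15.9; whole list 15.6%) and 30 with ΔTA (13.7%, 9.44 to 19.0; whole list 17.5%). The 3 shares gained and the WT share lost lie below the whole-list values, with intervals that exclude them. The part of the coverage of these windows in these shares was not tested here either.

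At 1.2-fold, 2 of the 10 genes were higher and 1 lower with WT SOX9, beside 32.8% and 18.4% of all protein-coding genes. With ΔHMG 2 were higher and 0 lower, beside 22.6% and 15.6%, and with ΔTA 3 were higher and 1 lower, beside 34.2% and 13.3%. Lats1 was covered for 9.02 kb without DOX, 15.7 kb with WT, 9.15 kb with ΔHMG and 10.4 kb with ΔTA, so that WT stands above the other 3, and its WT ratio of 1.75 was above that of 91.2% of genes. Tead4 was covered for 31.2, 37.7, 35.4 and 34.1 kb in the same order, highest with WT at 1.21 times no DOX, a direction that reversed among the better-ranked intervals. Tead3 went the other way, with 17.2 kb without DOX and 16.1 kb with WT, but 23.6 kb with ΔHMG and 25.9 kb with ΔTA. Both of these directions reversed with 100-kb flanks. Per list, 3 or 4 intervals of the Lats1 window and 2 or 3 of the Tead3 window had that gene's start as their nearest coding start site.

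Tead2 was likewise highest with the truncated proteins, at 11.4, 12.4, 14.4 and 16.2 kb, but both truncations fell below no DOX with 10-kb flanks. In each culture list 1 interval of the Tead2 window had a Tead2 start as its nearest coding start site. Vgll3 was covered for 11.5, 8.35, 10.6 and 9.19 kb, lowest with WT. Amotl2 was covered for 29.3, 30.7, 30.3 and 35.7 kb and passed the fold with ΔTA only. Yap1 (23.6, 25.8, 21.0 and 21.5 kb), Wwtr1 (32.8, 37.1, 33.7 and 38.9 kb), Tead1 (76.6, 86.3, 76.4 and 76.8 kb) and Lats2 (20.7, 21.9, 22.8 and 21.2 kb) stayed within 1.2-fold in all 3 comparisons. Wwtr1, which fell in skin, was covered for more bases with each SOX9 form in culture than without DOX, as was the median gene. Its ratios were 1.13 with WT, 1.03 with ΔHMG and 1.19 with ΔTA, beside 1.055, 1.02 and 1.07 for the median gene.

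**Figure D5:**
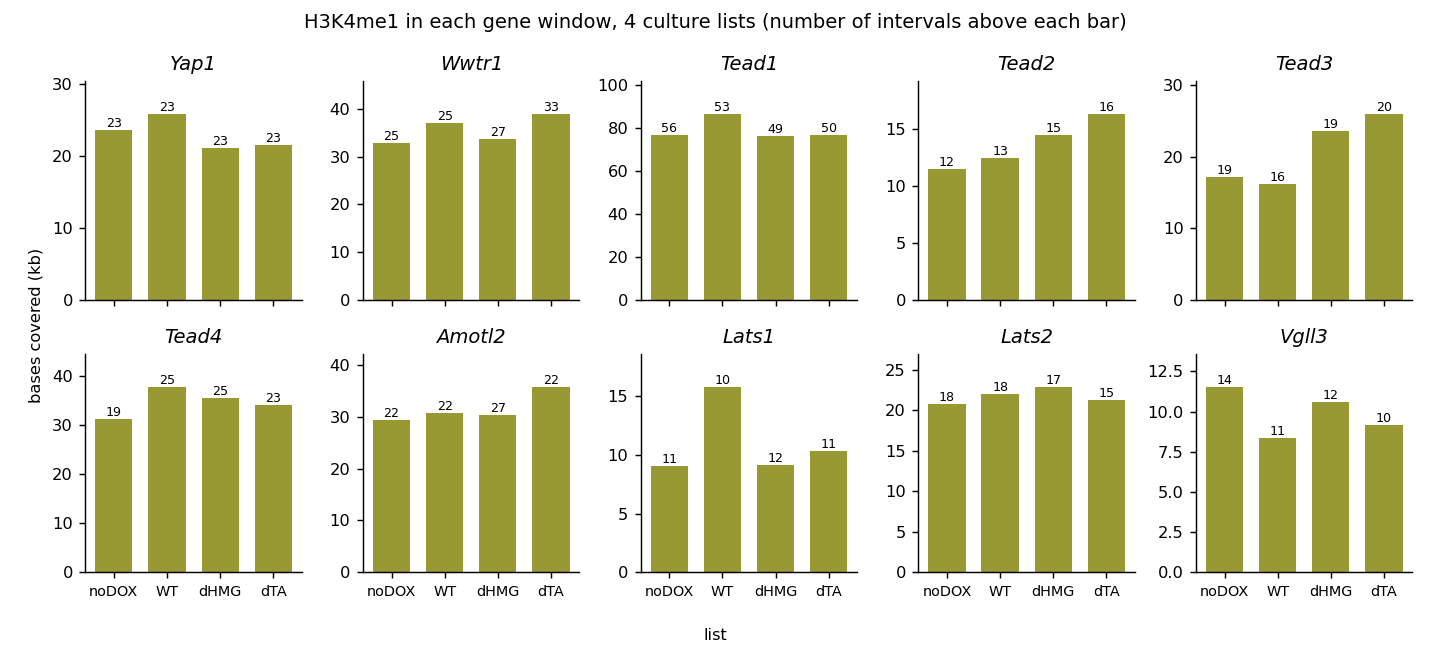
Bases covered by H3K4me1 intervals (kb, linear axis from 0, a scale of its own for each gene) in the 4 culture lists, without DOX (noDOX) and with wild-type (WT), HMG-deleted (dHMG) or transactivation-domain-deleted (dTA) SOX9, with the number of intervals above each bar. Lats1 is highest with WT, at 15.7 kb, and Tead3 is higher with both truncations, at 23.6 and 25.9 kb.

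Of the 41 intervals gained with WT SOX9, 10 were also called with both truncations (24.4%, 12.4 to 40.3; 11.7% of all WT-gained intervals), 2 with ΔHMG only, 3 with ΔTA only and 26 with neither (63.4%, 46.9 to 77.9; all 70.9%). The one of highest score, chr9:102699838-102702678 upstream of Amotl2 (4.07-fold over background), was called with both truncations as well, and it overlaps the skin domain that was absent at D0 and W1 and present at W2, W6 and W12. The next by score lay in a UTR exon of Lats2 (chr14:57721718-57722751, 3.56-fold), 28.4 kb upstream of Amotl2 (chr9:102688208-102688589, 5.18-fold, also with ΔHMG), 37.7 kb downstream of the Lats1 start (chr10:7717905-7719917, 4.04-fold) and in an intron of Tm4sf4 in the Wwtr1 window (chr3:57433722-57434065, 4.30-fold). The Lats1 interval lies nearest to a start of Katna1 and overlaps a skin domain that was called at D0 and in none of the later skin lists. In all, 6 of the 41 intervals overlapped a skin H3K4me1 domain at W2 but none at D0 (14.6%, 5.57 to 29.2), against 13.6% of all 33788 WT-gained intervals. A domain was there at both times for 12 (29.3%, all 22.7%), at D0 only for 4 (9.76%, all 7.16%) and at neither for 19 (46.3%, 30.7 to 62.6; all 56.5%). For these skin classes, each share of all intervals lies inside the interval of the 41. The 11.7% of all intervals called with both truncations lies below the interval of the 41, 12.4 to 40.3.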

How the data were processed

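Histone marks were measured by MINT-ChIP, a multiplexed chromatin immunoprecipitation with barcoded chromatin. The authors split reads by barcode, trimmed them with Skewer, aligned them to mm10 (per the labels with Bowtie2 2.2.9), removed duplicates with Picard, merged replicates with SAMtools 1.9 and called regions per mark and time (MACS2 2.1.1 for H3K27ac, epic2 for H3K4me1 in skin). The caller of the culture lists, which have the MACS2 broad layout, is not given in the sources used here. The deposited H3K4me1 domains carry a p-value each. The deposited H3K27ac peaks and culture intervals carry a score, a ratio (fold enrichment over background) and, for H3K27ac, a −log10 p-value, all set by the authors' caller. 14 barcode lists were not used. Intervals outside the autosomes, X and Y were left out, and no list gives read totals.

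From these, intervals and covered bases were counted in each window (gene body of the GENCODE M21 basic annotation with 50 kb flanks; overlap of at least 1 bp) with Python 3.11.15, numpy 2.4.6, pandas 2.3.3, scipy 1.17.1 and pysam 0.24.0, tested on simulated intervals. Each list was compared with D0 or with no DOX, which all comparisons of a mark share as the reference. Folds of 1.5 (H3K27ac) and 1.2 (H3K4me1) in covered bases, or 0 in 1 list only, were counted against all protein-coding genes with an interval in either list. Since caller fold is (pileup + 1)/(background + 1), the background of each H3K27ac list was found as the value that turned most folds into whole pileups, and the Poisson p-value of those pileups matched the deposited one within 0.05 on the −log10 scale for at least 99.97% of them. Shares have exact binomial (Clopper-Pearson) and pileups exact Poisson 95% intervals, which cover counting error only. All 10 genes were named in every list, elements by fold or score within fixed classes, and of the 25 other pathway genes those with up to the 3 largest changes in each direction at W2, with Ccn1 and Ccn2. The genes, lists and rules were chosen with earlier results of these data known. Sequences are from RefSeq GRCm38.p6. Flanks of 10 and 100 kb, other overlaps, ranks, folds and start-site distances were tried as alternatives. Leaving out H3K27ac peaks at other coding genes' start sites was added after seeing the data, and it kept the peaks at the Lats2 start.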

Additional observations from a re-analysis of the deposited data

How the results depend on the processing

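No paired analysis was possible because each list pools its replicates, and for the same reason no replicate was left out. Of 132 recomputed shares of gained and lost intervals, 114 stayed inside the interval of the reported share, as all did with flanks of 10 or 100 kb or an overlap of 50%. The shares that did not are listed next, without the whole-list share under the same setting. Whether these shares lie below those of their lists was therefore not tested. With lists cut to equal length, H3K4me1 gains were 9.26% at W1, 22.0% at W2 and 17.8% at W12, losses at W1 12.5%, and culture losses with ΔTA 21.0%. Counting only intervals whose nearest start belongs to the 10 genes, H3K4me1 losses at W1 were 16.4%. Among the better-ranked 50% of each list, H3K4me1 gains at W6 were 13.5%, H3K27ac gains 30.6% (W1), 25.8% (W2) and 27.6% (W6), H3K27ac losses 23.3% (W1), 23.3% (W2) and 30.0% (W6), culture gains 25.2% (ΔHMG) and 24.8% (ΔTA), and culture losses 28.7% (WT), 31.3% (ΔHMG) and 29.6% (ΔTA).

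Of 460 recomputed log2 ratios of single genes, 8 that had passed the fold changed direction. A further 64 moved by more than the fold limit, 27 among the better-ranked 50%, 13 with 10-kb flanks, 12 with 100-kb flanks, 7 with lists of equal length and 5 without peaks at other genes' start sites. A change of sign in a ratio that had not passed the fold was not counted as a change of direction. Those that changed direction were Tead2 in H3K4me1 at W1 with lists of equal length (0.35), Tead4 in H3K27ac at W12 with 100-kb flanks (-0.12), Tead4 in culture with WT among better-ranked intervals (-0.065), Tead2 in culture with 10-kb flanks (-0.10 with ΔHMG, -0.19 with ΔTA), and Tead3 in culture with 100-kb flanks (-0.052 with ΔHMG, -0.047 with ΔTA) and among better-ranked intervals (-0.079 with ΔTA).

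At a higher fold (2 for H3K27ac, 1.5 for H3K4me1), H3K4me1 counts became 0 higher and 1 lower at W1, 1 and 1 at W2, 0 and 2 at W6, and 0 and 1 at W12. H3K27ac counts became 1 higher and 0 lower at W1, 0 lower at W2, and 1 higher and 3 lower at W12, and culture counts 1 higher and 0 lower with WT, 0 higher with ΔHMG, and 1 higher and 0 lower with ΔTA. With 10-kb flanks, 2 genes were higher in H3K4me1 at W1, W6 and W12, 2 were lower in H3K27ac at W2 and at W6, and 0 were lower in culture with ΔTA. Without H3K27ac peaks at start sites of other coding genes, an alternative chosen after seeing the data, 1 gene was higher and 2 were lower at W1, and 2 were lower at W2. No share of all protein-coding genes is given for these settings, so these counts cannot be read against a background. The cause of these shifts was not tested. The smallest summit pileup was 3 to 5 fragments per H3K27ac list, which limits the weakest peaks.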
